A study of Mus musculus with 4 samples.

Results

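The expressed solute carrier genes of DN3 thymocytes were compared between wild-type (WT) libraries and libraries labelled Gata3(g/g), with 2 libraries of each genotype. Genes were chosen by 2 conditions, a symbol that starts with Slc and a digit and a mean of at least 1 FPKM over the 4 libraries (fragment counts adjusted for transcript length and library size). Of 357 genes with such a symbol, 151 met the minimum, out of 10224 genes of any kind that met it and 23285 genes in the table. The symbol alone also admitted 4 genes that encode no carrier, Slc9a3r1 (a scaffold protein), Slc7a6os, Slc4a1ap and the pseudogene Slc2a4rg-ps, which leaves 147 carriers.

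Solute carriers are membrane proteins that move small molecules across the plasma membrane or the membranes of organelles. Some let a solute run down its own gradient, and others couple it to sodium, protons or a second solute. Developing T cells draw on amino acid, glucose, folate and nucleoside carriers when they grow and divide. The factor GATA3 binds DNA through zinc fingers and is required early in the T lineage.

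The donors of the cells were fetal livers of the WT or the Gata3(g/g) genotype, the latter labelled a hypomorph, all of the C57BL/6 strain. Irradiated mice had received these cells, and thymocytes of the DN3 stage, the CD4-negative and CD8-negative stage of T cell receptor beta rearrangement, were sorted at 16 weeks. The strain of the recipients, the ages of the animals and any step to remove thymocytes of host origin are not stated in the sources used here. The labels place both replicates 1 in one sequencing run (run 1) and both replicates 2 in another (run 2), and they do not say that replicates came from separate animals. The p-values therefore concern the spread among these libraries, which may be technical.

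The libraries held between 14331705 and 26901913 fragments, and genes with an Slc symbol took from 0.875% to 0.969% of them. All 8 DN3 markers were expressed, with a summed level of 1888 to 2393 FPKM per library, and Cd4 stayed at or below 0.492 FPKM. Of the 8, Il2ra, which encodes the CD25 that marks the stage, was higher in libraries labelled Gata3(g/g) (277 and 261 FPKM in WT, 569 and 492 FPKM in the others; log2 fold change 0.98 ± 0.181 SE, edgeR adjusted p = 0.00262), and the other 7 did not pass. Gata3 itself stood at 62.4 and 58.5 FPKM in WT and at 120 and 96.1 FPKM in libraries labelled Gata3(g/g). The fitted log2 difference was 0.83 ± 0.146 (SE; edgeR adjusted p = 0.00165). The label names a hypomorph, a term for reduced gene function, while these are RNA levels, and neither protein nor function was measured here. The values therefore cannot check the label, and every direction below rests on the labels. These gene-level values also cannot tell which stretch of a changed allele the fragments came from. Marker lists also differed between the runs: 8 erythroid markers other than Slc4a1 summed to 1.45 and 2.39 FPKM in run 1 and to 461 and 588 FPKM in run 2, and 10 immediate-early genes summed to 695 and 491 FPKM in run 1 and to 50.5 and 61.9 FPKM in run 2. The neutrophil genes S100a8 and S100a9 of the myeloid list were at or below 0.66 FPKM in run 1 and between 8.77 and 40.2 FPKM in run 2. Between the runs, 4 of 5 gamma-delta T cell markers and 3 of 8 DN3 markers passed, beside 34.8% of all genes tested. Nothing is read from these 2 counts.

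The tests used edgeR's quasi-likelihood F test on rounded estimated fragment counts of all 10224 genes, with the run as a replicate block and Benjamini-Hochberg adjustment at 0.05. Among the 151 genes, 15 (9.93%) passed, beside 6.9% of all genes tested. Higher in libraries labelled Gata3(g/g) were 6 of them (3.97%, beside 3.9% of all genes), and lower were 9 (5.96%, beside 2.99%). The median log2 fold change of the 151 genes was 0.003, beside 0.008 over all genes, and the median of its absolute value was 0.19 beside 0.18. In these bulk libraries a lower value can come from fewer cells of a type or from less RNA per cell, which cannot be told apart.

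The calls depend on the block. Without it, edgeR called 0 of the 151 genes and 0 of all genes, with unadjusted p-values under 0.05 for 9 and 393 genes. With the run as a term, DESeq2 called 417 of all genes and 6 of the 15, which were Slc35d1, Slc22a3, Slc7a5, Slc19a1, Slc35f2 and Slc37a2. By limma on log2(FPKM + 1) with the run as a term, 16 of all genes and 0 of the 151 passed, the smallest adjusted p among the 151 being 0.0552. The authors' deposited table marked 8 of the 151 as significant, 3 higher and 5 lower, and all 8 are among the 15; over all genes it marked 456 of 11123 tested (4.10%).

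**Figure D1:**
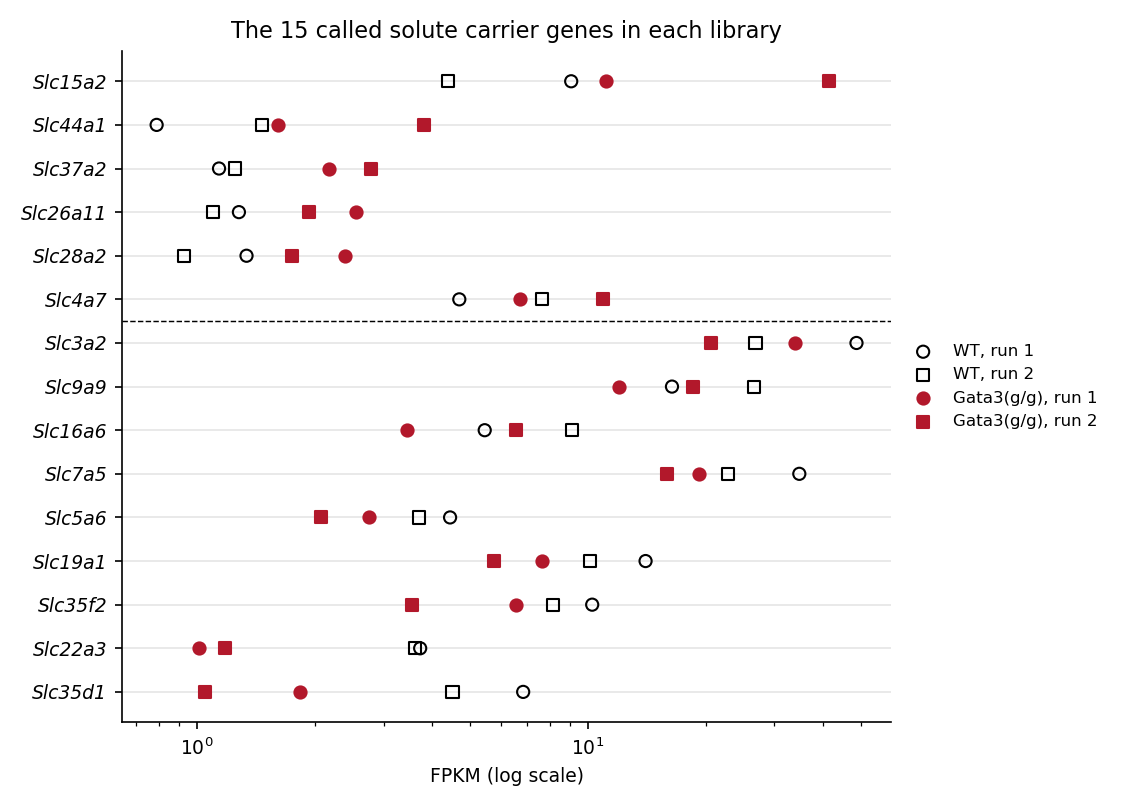
FPKM (log scale) of the 15 solute carrier genes that passed the test, 1 row per gene and 1 symbol per library, with no averaging; the 6 above the dashed line were higher in libraries labelled Gata3(g/g) and the 9 below it lower. In 11 of the 15 rows the filled and the open symbols do not overlap, and in Slc16a6, Slc3a2, Slc4a7 and Slc9a9 they separate only within a run.

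The largest fall was that of a nucleotide sugar carrier. Slc35d1 carries UDP-glucuronic acid and UDP-N-acetylgalactosamine into the endoplasmic reticulum. It stood at 6.83 and 4.50 FPKM in WT replicates 1 and 2 and at 1.84 and 1.05 FPKM in Gata3(g/g) replicates 1 and 2. Both WT libraries were above both libraries labelled Gata3(g/g), and the log2 fold change was −1.98 ± 0.188 (SE; edgeR adjusted p = 3.37e-06). The within-run differences in log2 CPM (counts scaled to the library total, adjusted by edgeR's TMM factors) were −1.86 in run 1 and −2.09 in run 2. The gene lies on chromosome 4 (chr4:103170649-103222269, GRCm38.p6, minus strand).

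Slc22a3, a plasma membrane carrier of organic cations and monoamines, showed a fall of similar size. Its levels were 3.72 and 3.61 FPKM in WT and 1.01 and 1.18 FPKM in libraries labelled Gata3(g/g), with no overlap. The log2 fold change was −1.74 ± 0.204 (SE; edgeR adjusted p = 3.54e-05), and each run showed it (−1.84 in run 1, −1.61 in run 2). It rests on 491 and 329 fragments in WT and on 178 and 139 in libraries labelled Gata3(g/g). The gene lies at chr17:12419972-12507704 (GRCm38.p6, minus strand).

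Slc15a2 rose by the largest fitted amount, and 1 library set that amount. It encodes a proton-coupled carrier of di- and tripeptides at the plasma membrane. It stood at 9.06 and 4.39 FPKM in WT and at 11.1 and 41.5 FPKM in libraries labelled Gata3(g/g), so that replicate 2 of the latter was far above the other 3 libraries. The log2 fold change was 1.74 ± 0.420 (SE; edgeR adjusted p = 0.0180), but the difference was 0.31 in run 1 and 3.23 in run 2. DESeq2 with the run as a term gave 1.77 with an adjusted p of 0.634. The gene lies at chr16:36750161-36785158 (GRCm38.p6, minus strand).

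Slc37a2, which exchanges glucose 6-phosphate for phosphate at the endoplasmic reticulum, rose more evenly. Its levels were 1.14 and 1.25 FPKM in WT and 2.17 and 2.79 FPKM in libraries labelled Gata3(g/g). No WT value reached the lower of the other pair, and the log2 fold change was 1.05 ± 0.201 (SE; edgeR adjusted p = 0.00343). The within-run differences were 0.94 and 1.14. The gene lies at chr9:37229149-37255738 (GRCm38.p6, minus strand).

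GATA factors bind sites built on the letters GATA, and the windows of 250 bases before each RefSeq start site (GRCm38.p6) were searched on both strands for the motif AGATAA, for AGATAG, for TGATAA and for TGATAG. These 4 differ from each other only in the first and last letter. Of the 151 genes, 112 matched a RefSeq window by symbol, and 21 of them (18.8%) held at least 1 match; over all 32851 windows, which can be several per gene, the share was 26.5%. Among the 15 called genes, 12 had a window and 3 of these held a match, Slc15a2, Slc28a2 and Slc9a9. In all 3 the window precedes a start site that is not the outermost one of the RefSeq gene, so that it overlaps the gene itself. A match is a description of the letters, not of binding. The windows of Slc22a3, which fell, and of Slc37a2, which rose, end at the base before a start site that is both the outermost of the RefSeq gene and the edge of the gene in the authors' deposited table. They are printed 5′ to 3′ in the direction of the gene, to show the letters before a called gene of each direction, and neither holds a match, so no letter is in capitals.
Slc22a3: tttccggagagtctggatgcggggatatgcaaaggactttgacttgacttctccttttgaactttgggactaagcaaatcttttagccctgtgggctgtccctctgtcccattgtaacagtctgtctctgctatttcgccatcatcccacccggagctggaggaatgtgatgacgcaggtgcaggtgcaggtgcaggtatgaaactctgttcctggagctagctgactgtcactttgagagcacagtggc
Slc37a2: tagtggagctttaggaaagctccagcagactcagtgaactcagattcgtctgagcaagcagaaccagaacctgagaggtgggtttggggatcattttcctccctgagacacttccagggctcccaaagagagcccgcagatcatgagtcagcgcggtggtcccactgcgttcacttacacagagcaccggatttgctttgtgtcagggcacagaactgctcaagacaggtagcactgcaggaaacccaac
The Slc22a3 window is chr17:12507705-12507954 and the Slc37a2 window chr9:37255739-37255988 (both minus strand).

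**Figure D2:**
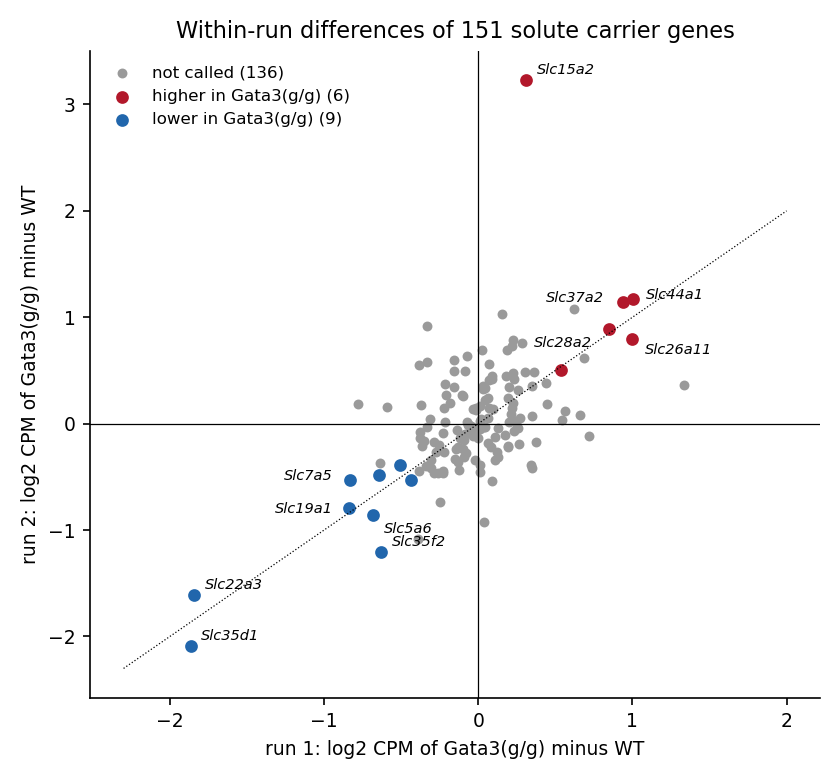
Difference in log2 CPM between the library labelled Gata3(g/g) and the WT library of the same run, run 1 on the horizontal and run 2 on the vertical axis, 1 point per gene for all 151; the dotted line marks equal differences. Slc22a3 and Slc35d1 lie at the lower left, and Slc15a2 lies far from the dotted line, at 0.31 in run 1 and 3.23 in run 2. The test favours genes with similar differences in both runs, so nothing is read from how near the called genes lie to the line.

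The 2 within-run comparisons use different libraries. Of the 151 genes, 101 (66.9%) had the same sign in both, beside 64.4% of all genes tested. All 15 called genes did, which the test's use of both runs largely fixes. Across the 151 genes the Pearson correlation of the 2 differences was 0.58 (0.63 without Slc15a2) and the Spearman correlation 0.48; over all genes the values were 0.47 and 0.44 (genes share the same 4 libraries and are not replicates). In 48 of the 151 (31.8%) the FPKM values of the genotypes did not overlap, 21 higher and 27 lower in libraries labelled Gata3(g/g), beside 29% of all genes.

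In the substrate groups that follow, counts of called genes stand beside 3.9% of all genes tested that rose and 2.99% that fell. The groups are small, and nothing is read from the count of any of them. Amino acid carriers numbered 16, of which 0 rose, 2 fell and 14 did not pass, with a median log2 fold change of 0.02. The 2 that fell are the chains of 1 carrier. Slc7a5 encodes LAT1, the light chain that exchanges large neutral amino acids such as leucine, and Slc3a2 encodes the CD98 heavy chain that brings it to the plasma membrane. Slc7a5 stood at 34.7 and 22.8 FPKM in WT and at 19.3 and 15.9 FPKM in libraries labelled Gata3(g/g), without overlap (log2 fold change −0.68 ± 0.128 SE, edgeR adjusted p = 0.00298). Slc3a2 stood at 48.6 and 26.8 FPKM in WT and at 33.8 and 20.7 FPKM in libraries labelled Gata3(g/g). Its genotypes overlapped across runs and separated within each (−0.45 ± 0.123 SE, edgeR adjusted p = 0.0374), and it no longer passed with scaling to total fragments only (adjusted p = 0.0672), at a mean FPKM of at least 5 (0.0654) or by DESeq2 (0.109). The position of Slc7a5 is chr8:121881146-121907686 and that of Slc3a2 chr19:8706882-8723369 (both GRCm38.p6).

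The other light chains and cationic carriers of the Slc7 family above the minimum, Slc7a1 and Slc7a6, had fitted values of −0.35 and −0.37 and did not pass. The Slc38 family, 6 genes that include sodium-coupled neutral amino acid carriers, had a median of 0.13 and none passed. Slc38a2 was the most abundant amino acid carrier, at 67.1 and 28.7 FPKM in WT and 75.4 and 46.7 FPKM in libraries labelled Gata3(g/g). Each genotype's run 2 library was the lower of its pair, and the genotype difference did not pass (0.44 ± 0.153 SE, edgeR adjusted p = 0.101). Slc1a5, which brings glutamine and other neutral amino acids into the cell, ranged from 26.6 to 35.98 FPKM (−0.19 ± 0.122 SE, edgeR adjusted p = 0.414).

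The other peptide carrier above the minimum, Slc15a4, sits in endosomes and lysosomes and moves histidine and peptides. It stood at 9.90 and 5.30 FPKM in WT and at 9.48 and 5.26 FPKM in libraries labelled Gata3(g/g), a fitted difference of −0.03 (edgeR adjusted p = 0.923). The high value of Slc15a2 in Gata3(g/g) replicate 2 had no counterpart in it.

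Among 9 carriers of glucose and other sugars, Slc37a2 rose, none fell and 8 did not pass, with a median of −0.09. Slc2a1, the glucose carrier GLUT1, stood at 3.75 and 3.66 FPKM in WT and at 2.93 and 2.79 FPKM in libraries labelled Gata3(g/g). These did not overlap, but the difference did not pass (−0.37 ± 0.195 SE, edgeR adjusted p = 0.297). Slc2a3 (GLUT3) was at 2.77 and 1.21 FPKM in WT and at 2.099 and 1.80 FPKM in libraries labelled Gata3(g/g). Its sign differed between the runs, −0.38 and 0.55. The most abundant sugar carrier was Slc50a1, a sugar carrier of the Golgi and plasma membrane, from 19.3 to 27.1 FPKM.

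Inorganic ion carriers numbered 18, of which 2 rose, 1 fell and 15 did not pass, with a median of 0.02. Slc4a7, a sodium-bicarbonate cotransporter that raises intracellular pH, was at 4.69 and 7.64 FPKM in WT and at 6.72 and 10.9 FPKM in libraries labelled Gata3(g/g). It was higher in run 2 in both genotypes, and within each run the library labelled Gata3(g/g) was higher by 0.53 and 0.51 (0.52 ± 0.127 SE, edgeR adjusted p = 0.0184). Slc26a11, a sulfate and anion carrier, was at 1.28 and 1.1 FPKM in WT and at 2.55 and 1.94 FPKM in libraries labelled Gata3(g/g), without overlap (0.91 ± 0.253 SE, edgeR adjusted p = 0.0385). It had from 76 to 339 fragments per library, 76 being the fewest of any called gene.

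Slc9a9, a sodium-proton exchanger of endosomes and the most abundant gene of the ion group, fell. It was at 16.4 and 26.6 FPKM in WT and at 12 and 18.5 FPKM in libraries labelled Gata3(g/g). The WT library was the higher one in each run (differences of −0.43 and −0.53), while the genotypes overlapped across runs (−0.48 ± 0.125 SE, edgeR adjusted p = 0.0273). Scaling to total fragments only (adjusted p = 0.0511) and DESeq2 (0.0809) ended the call.

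Of 6 nucleoside and nucleotide carriers, 1 rose and 5 did not pass, with a median of 0.01. Slc28a2 (CNT2), which couples purine nucleosides to sodium, was at 1.34 and 0.929 FPKM in WT and at 2.39 and 1.75 FPKM in libraries labelled Gata3(g/g). The genotypes did not overlap (0.88 ± 0.222 SE, edgeR adjusted p = 0.0237). The far more abundant equilibrative nucleoside carrier Slc29a1 (ENT1) was at 26.3 and 12.9 FPKM in WT and at 26.4 and 13.3 FPKM in libraries labelled Gata3(g/g). Within each run its values nearly coincided (0.02 ± 0.135 SE, edgeR adjusted p = 0.959), and it was higher in run 1. Slc43a3, a purine nucleobase carrier, ranged from 18.4 to 25.5 FPKM and was the most abundant of the group.

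The 16 genes of the Slc35 family carry nucleotide sugars into the Golgi and endoplasmic reticulum or are placed here by family alone. None rose, 2 fell and 14 did not pass, and the median was 0.04. Beside Slc35d1, Slc35f2 fell, a family member not known chiefly as a nucleotide sugar carrier. It was at 10.3 and 8.16 FPKM in WT and at 6.54 and 3.55 FPKM in libraries labelled Gata3(g/g), without overlap (−0.91 ± 0.163 SE, edgeR adjusted p = 0.00202). The most abundant member, Slc35b1, was at 27.9 and 15.3 FPKM in WT and at 32.0 and 25.8 FPKM in libraries labelled Gata3(g/g), and its difference did not pass (0.47 ± 0.151 SE, edgeR adjusted p = 0.0755).

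Carriers of vitamins, cofactors and other organic solutes numbered 15, of which 1 rose, 3 fell and 11 did not pass, with a median of −0.07. Slc22a3 above is 1 of the 3. Slc19a1, the reduced folate carrier that brings folates into the cell for nucleotide synthesis, was at 14.04 and 10.1 FPKM in WT and at 7.63 and 5.76 FPKM in libraries labelled Gata3(g/g). It did not overlap between genotypes and differed by nearly the same amount in each run, −0.83 and −0.80 (−0.82 ± 0.138 SE, edgeR adjusted p = 0.00119). It lies at chr10:77032269-77050432 (GRCm38.p6, plus strand).

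Slc5a6, the sodium-coupled carrier of biotin, pantothenate and lipoate, was at 4.44 and 3.69 FPKM in WT and at 2.76 and 2.07 FPKM in libraries labelled Gata3(g/g), without overlap (−0.77 ± 0.173 SE, edgeR adjusted p = 0.0118). Its exons overlap those of 0610007C21Rik on the opposite strand, and whether counting used the strand is not stated in the sources used here, so its value is uncertain. That neighbour stood at −0.26 with an edgeR adjusted p of 0.423. Slc44a1, a choline carrier, rose: WT held 0.789 and 1.47 FPKM, against 1.61 and 3.81 FPKM in libraries labelled Gata3(g/g) (1.1 ± 0.248 SE, edgeR adjusted p = 0.0118). The lower of the latter was just above the higher WT value. Its relative Slc44a2, the most abundant gene of the group at 28.5 to 41.6 FPKM, did not overlap between genotypes but did not pass (0.32 ± 0.126 SE, edgeR adjusted p = 0.149).

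Of 3 carriers of monocarboxylates and organic acids, Slc16a6 fell. Slc16a6 belongs to the monocarboxylate carrier family and was at 5.45 and 9.11 FPKM in WT and at 3.45 and 6.56 FPKM in libraries labelled Gata3(g/g). It was higher in run 2 in both genotypes, and the WT library was higher within each run (−0.56 ± 0.138 SE, edgeR adjusted p = 0.0198). Its exons overlap those of Amz2 on the opposite strand (0.03, edgeR adjusted p = 0.924), so its value is uncertain too. Slc16a1, the lactate carrier MCT1, ranged from 13.3 to 17.0 FPKM and did not pass (−0.13, edgeR adjusted p = 0.613). Over all 151 genes, 17 overlap exons of another gene that was itself at 1 FPKM or more.

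No carrier of metals (0 of 21), no mitochondrial carrier (0 of 36) and no carrier of lipids (0 of 4) passed, beside 6.9% of all genes tested, and nothing is read from counts of 0 in groups this small. The 21 metal carriers, mostly zinc importers of the Slc39 family (11 genes) and zinc exporters of the Slc30 family (5 genes), had fitted values from −0.52 to 0.31 and a median of 0.09. Slc39a7, which releases zinc from the endoplasmic reticulum, was the most abundant, at 15.4 to 29.9 FPKM. The 36 mitochondrial carriers of the Slc25 family had fitted values from −0.44 to 0.67 and a median of −0.04. They held the 2 most abundant of the 151 genes, Slc25a5, an exchanger of ADP and ATP, and Slc25a3, the phosphate carrier, which together made up 29.7% of the summed FPKM. Slc25a5 was at 445 and 321.8 FPKM in WT and at 338 and 297 FPKM in libraries labelled Gata3(g/g), with overlap (−0.26 ± 0.159 SE, edgeR adjusted p = 0.394). Its processed pseudogenes can share fragments with it, so its count is uncertain.

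All 4 carriers of lipids and acetyl-CoA had fitted values above 0, from 0.21 to 0.86, and none passed. Slc27a1, a fatty acid transport protein and the most abundant of them, was at 10.9 and 4.87 FPKM in WT and at 12.6 and 5.61 FPKM in libraries labelled Gata3(g/g). Slc27a4, of the same family, was at 0.717 and 1.11 FPKM in WT and at 1.81 and 1.44 FPKM in libraries labelled Gata3(g/g), without overlap (0.86 ± 0.272 SE, edgeR adjusted p = 0.0698). It is the 1 gene of the 151 whose WT mean lay under the minimum, so that libraries labelled Gata3(g/g) brought it in. The vesicular monoamine carrier Slc18a2 ranged from 1.19 to 4.04 FPKM and did not pass (−0.23, edgeR adjusted p = 0.525).

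**Figure D3:**
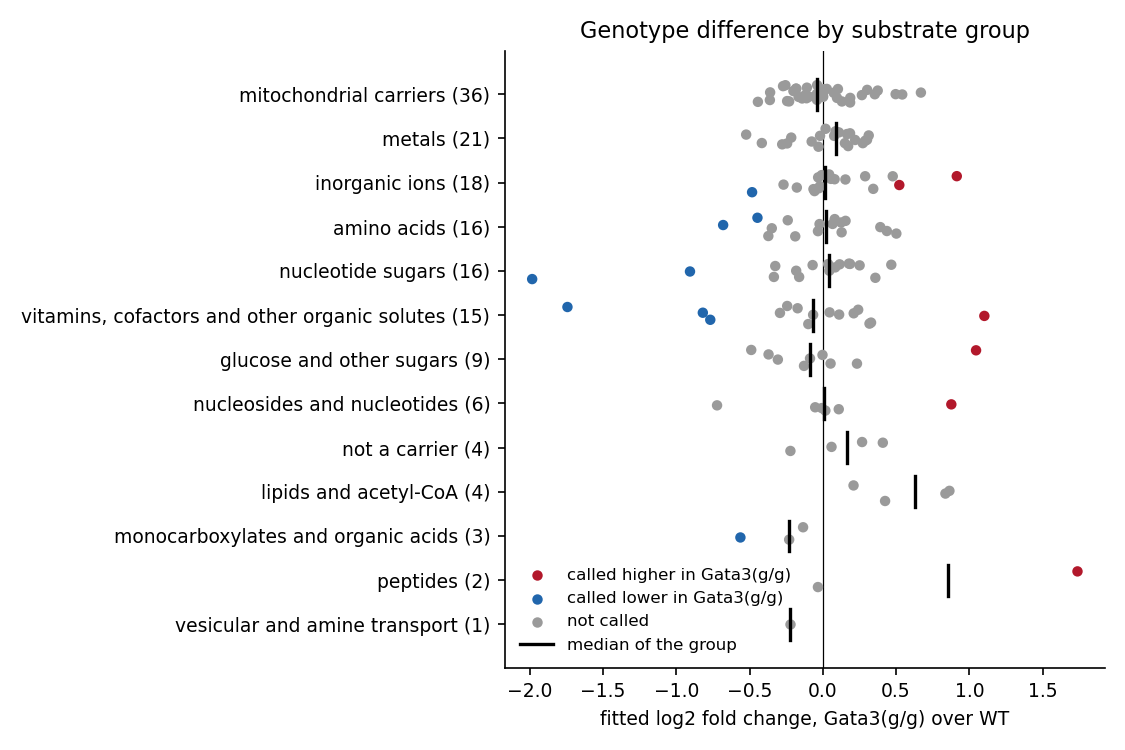
Fitted log2 fold change (Gata3(g/g) over WT, edgeR with the block) of each of the 151 genes by substrate group, with the number of genes in brackets and a bar at the group's median; red points passed as higher, blue points as lower and grey points did not pass. Mitochondrial, metal and lipid carriers hold no coloured point, and the lowest points belong to Slc35d1 among nucleotide sugar carriers and Slc22a3 among organic solute carriers.

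The run separated more of these genes than the genotype did. The run term of the same edgeR model called 48 of the 151 (31.8%, beside 34.8% of all genes), 17 higher in run 2 (11.3%, beside 17.5%) and 31 lower (20.5%, beside 17.3%). Both terms called 9 genes, among them all 4 whose genotypes overlapped across runs. The matching count over all genes is not given here, so nothing is read from the 9. Slc4a1, the anion exchanger band 3 of red blood cells, was at 0.006 and 0.009 FPKM in run 1 (1 and 2 fragments) and at 4.05 and 5.67 FPKM in run 2 (486 and 879 fragments). Run 2 alone brought it above the minimum, and within runs its genotype difference did not pass (0.48 ± 0.231 SE, edgeR adjusted p = 0.251). The erythroid markers given above moved with it, and their part in other run differences was not tested.

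Next in size among the called run differences were Slc18a2 (1.55), Slc25a24 (−1.47), Slc25a38 (−1.21) and Slc26a2 (1.15), as log2 fold changes of run 2 over run 1. Slc26a2, a sulfate carrier, was at 2.04 and 1.97 FPKM in run 1 and at 4.51 and 4.30 FPKM in run 2, for WT and Gata3(g/g) in turn. Slc25a38, a mitochondrial glycine carrier used in heme synthesis, was at 4.80 and 5.26 FPKM in run 1 and at 1.45 and 3.04 FPKM in run 2. Slc25a24, a mitochondrial ATP-magnesium and phosphate carrier, was at 2.09 and 1.59 FPKM in run 1 and at 0.602 and 0.686 FPKM in run 2, so that run 1 alone brought it above the minimum. With it, 3 of the 151 genes had a mean under 1 FPKM in run 2, and 2 had one in run 1, Slc4a1 and Slc24a6. Slc18a2 and Slc26a2 were higher in run 2, and Slc25a24 and Slc25a38 in run 1, in both genotypes. Immediate-early genes, which respond to the handling of cells, were lower in run 2 in all 9 of the tested members of their list, and their part in these values was not tested.

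**Figure D4:**
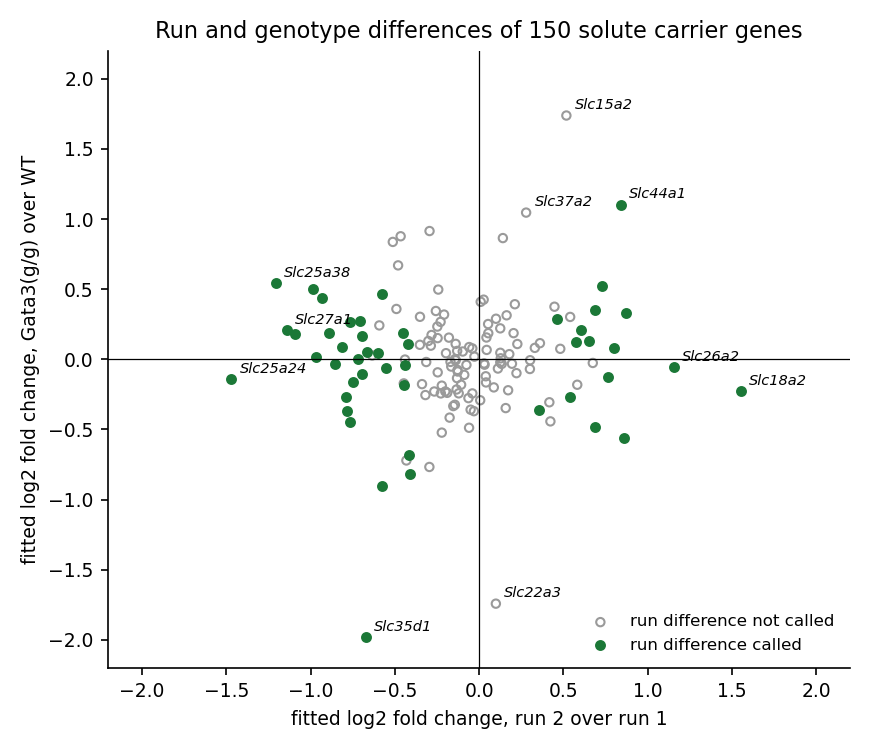
Fitted log2 fold change of run 2 over run 1 (horizontal) and of Gata3(g/g) over WT (vertical) for 150 of the 151 genes; Slc4a1, at a run value of 9.27, lies outside the axes. Filled points passed the test between runs, and Slc35d1 and Slc44a1 are filled and far from 0 on both axes.

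The genotype difference varied most between the runs, after Slc15a2, in Slc19a2, Slc27a4, Slc25a22 and Slc2a9. Slc19a2, a thiamine carrier, differed by −0.33 in run 1 and 0.92 in run 2, and Slc25a22, a mitochondrial glutamate carrier, by 0.04 and −0.93. Slc2a9, a urate carrier, differed by −0.78 and 0.18, and Slc27a4 by 1.33 and 0.36. None of these 4 passed the genotype test.

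Levels of the 151 genes had a median of 4.73 FPKM over the 4 libraries, beside 9.14 for all genes tested. Means of at least 5 FPKM were found for 71 genes, of at least 10 FPKM for 44 and of at least 100 FPKM for 2. Just inside the minimum were Slc36a1 (1.05 FPKM), Slc24a6 (1.07) and Slc9a5 (1.1), and just outside it Slc7a7 (0.841), Slc30a1 (0.821) and Slc26a1 (0.798). The most abundant symbol without a carrier function, Slc9a3r1, was at 95.9 and 48.7 FPKM in WT and at 101 and 67.1 FPKM in libraries labelled Gata3(g/g) (0.27, edgeR adjusted p = 0.258).

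Genes that work with these carriers were read from lists of carriers with other symbols, subunits, pumps, the mitochondrial calcium uniporter, regulators and lysosomal amino acid sensing. Of 91 listed genes, 82 are in the table and 62 reached the minimum. Of these 62, 4 rose, 2 fell and 56 did not pass, with a median of 0.04. Over all genes tested, 3.9% rose and 2.99% fell, and nothing is read from the count of called partner genes. Atp1b3, a beta subunit of the sodium-potassium pump that maintains the sodium gradient, was at 77.6 and 72.4 FPKM in WT and at 136 and 125 FPKM in libraries labelled Gata3(g/g) (0.81 ± 0.125 SE, edgeR adjusted p = 0.000586). Ccdc109b, the MCUb subunit that restrains the mitochondrial calcium uniporter, was at 71.7 and 67.3 FPKM in WT and at 36.5 and 29.2 FPKM in libraries labelled Gata3(g/g) (−1.09 ± 0.131 SE, edgeR adjusted p = 4.76e-05). Neither overlapped between genotypes.

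Txnip, which promotes the removal of glucose carriers from the cell surface, was at 34.6 and 17.5 FPKM in WT and at 66.8 and 28.9 FPKM in libraries labelled Gata3(g/g) (0.84 ± 0.125 SE, edgeR adjusted p = 0.00037). Its genotypes overlapped across runs and separated within each. Emb, a chaperone of monocarboxylate carriers, rose by 0.62 ± 0.149 (SE, edgeR adjusted p = 0.0184), and Ostm1, the partner of a lysosomal chloride carrier, by 0.54 ± 0.142 (SE, edgeR adjusted p = 0.0299). Ucp2, a mitochondrial carrier named outside the Slc scheme, fell by 0.47 ± 0.128 (SE, edgeR adjusted p = 0.0345). Of the 17 tested genes of amino acid sensing at the lysosome, 0 passed, with a median of −0.03.

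Some markers of other cells and of handling also moved with the genotype, beside 6.9% of all genes tested. None passed among the tested markers of the B lineage (1), thymic epithelium (2) or stroma and endothelium (1), and no dendritic marker reached the minimum. Of 5 tested markers of gamma-delta T cells, 4 rose and 1 fell, the list summing to 42.7 and 32.4 FPKM in WT and to 142 and 89.02 FPKM in libraries labelled Gata3(g/g). Cd8a and Cd8b1 of the double-positive list rose, while Cd4, its remaining gene, stayed at or below 0.492 FPKM. The list summed to 4.80 and 2.16 FPKM in WT and to 9.80 and 8.996 FPKM in libraries labelled Gata3(g/g). Most of these sums was Cd8b1, at 3.63 and 1.11 FPKM in WT and 7.61 and 7.22 FPKM in libraries labelled Gata3(g/g). In the NK or cytotoxic list Gzma fell (WT 485 and 463 FPKM, Gata3(g/g) 98.3 and 96.1 FPKM), and the other 6 of its 7 genes stayed at or below 0.330 FPKM. In the mast cell list Cpa3 fell (WT 43.5 and 49.997 FPKM, Gata3(g/g) 2.73 and 1.55 FPKM), the other 5 of 6 stayed at or below 0.155 FPKM, and Fcer1a was at 0 in every library. Of 9 myeloid markers, which summed to 11.6 and 50.3 FPKM in WT and to 19.5 and 64.6 FPKM in libraries labelled Gata3(g/g), 3 were tested: Lyz2 rose, S100a8 (−0.08) and S100a9 (−0.80) did not pass, and the step between the runs in these sums lies in the latter pair. Csf1r stayed at or below 0.152 FPKM. Of 9 tested immediate-early genes, Fosb (−0.66), Junb (−1.06), Egr1 (−0.73) and Nr4a1 (−1.21) fell and Jun (0.76) rose, and of the 6 tested erythroid markers other than Slc4a1, Hba-a2 (1.46) rose, with 0 FPKM in both libraries of run 1 and 10.7 and 30.4 FPKM in run 2. The part of these cells, and of handling, in the values of the solute carrier genes was not tested.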

How the data were processed

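RNA of sorted DN3 thymocytes was sequenced in 4 libraries. The submitters' processing notes name TopHat2 2.0.8b, Cuffdiff 2.1.1, Bowtie2 2.1.0 and mm10; the annotation and strand setting are not stated in the sources used here. Per the file headers, the authors deposited an estimated count of fragments and an FPKM value per gene and library. The authors' deposited comparison table also holds log2 fold changes with each p-value and q-value. Symbols are those of the files, and positions and start sites are RefSeq's on GRCm38.p6.

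Estimated counts were rounded and fitted with edgeR 4.0.16 (R 4.3.3; TMM scaling; 10224 genes with mean FPKM of at least 1; run and genotype as terms, 1 residual degree of freedom). The block follows the run identifiers of the labels; over all genes, the run differences of the 2 genotypes correlated with a Pearson r of 0.754. The printed log2 fold change is edgeR's shrunken one, and the SE is the unshrunk one over the square root of F. Within-run differences use a prior count of 2. In the table, 5 failed estimates, 0 of them in Slc genes, were kept and 3 genes marked too deep were dropped. A value of 3 fragments corresponds to 0.112 to 0.209 CPM of the unadjusted library total, a floor for counting error only. DESeq2 1.42.0 and limma 3.58.1 (pseudocount 1) were alternatives.

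The genes and lists were chosen with earlier results of these data known. Substrate groups follow family names. Named were the called genes, the most abundant of each group, those nearest the minimum, those with the 5 largest run differences or gaps between runs, 8 listed well-known carriers where expressed and called partners; Slc7a1, Slc7a6, Slc15a4, Slc25a3 and those in the other observations were chosen after their values were seen.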

Additional observations from a re-analysis of the deposited data

Results flagged for a closer look

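In 10 of the solute carrier genes named above, the 2 genotype differences had opposite signs in the 2 runs; the difference between runs was not tested for any of them, and each run holds 1 library per genotype. As the run 2 difference minus the run 1 difference in log2 CPM, the gap was 1.25 for Slc19a2, 0.96 for Slc2a9, 0.93 for Slc2a3, 0.54 for Slc25a24, 0.36 for Slc16a1, 0.17 for Slc36a1 and 0.15 for Slc9a5. It was −0.97 for Slc25a22, −0.73 for Slc24a6 and −0.40 for Slc43a3. None of the 10 passed the genotype test.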

How the results depend on the processing

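With no replicate block, members called higher went from 6 to 0, lower from 9 to 0 and partner genes from 6 to 0, and Slc2a3 had −0.026. DESeq2 called 1 higher, 5 lower and 30 between runs (48 as reported), and limma 0 higher, 0 lower, 0 partner genes and 20 between runs. At a mean FPKM of at least 5, where fewer genes are tested, 2 were higher, 5 lower and 27 differed between runs. Over all genes, the genotype test then called 348 of 7013, against 417 of 10224 by DESeq2 and 16 by limma. The matching shares between runs are not given here, and nothing is read from these run counts. The genes' median log2 fold change of 0.003 was 0.051 with total fragments only, 0.011 with upper-quartile scaling and −0.017 at 5 FPKM. Slc24a6 had 0.022 with total fragments only, and Slc43a3 0.042 there, 0.0020 with upper-quartile scaling and 0.0095 at 5 FPKM.

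Leaving out each library in turn drops the run term and leaves the runs unequally shared. It also leaves 1 genotype with a lone library, which is assumed to vary like the other. The median log2 fold change of the genes then ran from −0.078 to 0.021. Ranges of genes whose sign turned were −0.29 to 0.010 (Slc16a1), −1.21 to 0.74 (Slc18a2), −0.33 to 0.92 (Slc19a2), −0.56 to 0.51 (Slc24a6), −0.91 to 0.0059 (Slc25a22), −0.96 to 0.90 (Slc25a24), −0.19 to 1.49 (Slc25a38), −0.74 to 0.64 (Slc26a2), −0.48 to 0.87 (Slc27a1), −0.54 to 0.57 (Slc29a1), −0.49 to 0.66 (Slc2a3), −0.75 to 0.15 (Slc2a9), −0.12 to 1.06 (Slc38a2), −0.10 to 0.69 (Slc39a7), −0.27 to 0.24 (Slc43a3), −7.77 to 8.80 (Slc4a1), −0.17 to 0.76 (Slc9a3r1) and −0.031 to 0.13 (Slc9a5). Each of the 15 called genes tested kept its sign in every alternative run, but not its size. Without 1 library, values that moved by over 1.5 times ran from −0.86 (without Gata3(g/g) replicate 1) to −0.0012 (without WT replicate 1) for Slc3a2, from −0.85 (without Gata3(g/g) replicate 2) to −0.082 (without WT replicate 2) for Slc9a9, from −1.08 (without Gata3(g/g) replicate 2) to −0.10 (without WT replicate 2) for Slc16a6 and from 0.12 (without Gata3(g/g) replicate 2) to 0.94 (without WT replicate 2) for Slc4a7; in these 4, leaving out any of the 4 libraries moved the value that far. Slc15a2 had 2.64 without Gata3(g/g) replicate 1 and 0.73 without replicate 2, Slc35f2 −1.37 and −0.49 likewise, Slc44a1 0.60 without Gata3(g/g) replicate 2 and Slc7a5 −0.40 without WT replicate 1. With limma on log2(FPKM + 1), which shrinks changes of low genes, 4 more moved that far: Slc22a3 had −1.15, Slc26a11 0.56, Slc28a2 0.52 and Slc37a2 0.66. The 15 remained called under RLE scaling, upper-quartile scaling and no filter, and 13 under total fragments only.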

Other observations

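Of the 357 genes with an Slc symbol, 206 lay under 1 FPKM. Among them were other amino acid carriers, with Slc7a11, the cystine carrier, at 0.138 to 0.242 FPKM and Slc7a8, another light chain of the CD98 complex, at 0.0737 to 0.217 FPKM. The intestinal peptide carrier Slc15a1 stayed at or below 0.223 FPKM, the insulin-regulated glucose carrier Slc2a4 at or below 0.289 FPKM and the iron exporter Slc40a1 at or below 0.148 FPKM. The other concentrative nucleoside carriers, Slc28a1 and Slc28a3, stayed at or below 0.0273 and 0.125 FPKM. Slc46a2, which served as a marker of thymic epithelium, stayed at or below 0.155 FPKM. In 4 of the 206 genes no fragment was counted in any library.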
